A study of Sus scrofa with 12 samples.

Results

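Integrins are receptors of the cell surface that bind the extracellular matrix, and each is made of 1 α and 1 β subunit encoded by separate genes. The 10 subunit genes described here are among those known to form matrix-binding integrins: ITGA1, ITGA2, ITGA3, ITGA5, ITGA6, ITGAV, ITGB1, ITGB3, ITGB4 and ITGB5. They were chosen by name, but with earlier results of these data known. The shares of all genes set beside their counts are therefore descriptive and give no test of the family. Other subunits that were expressed, such as ITGA9, ITGA10 and ITGB8, are given further below. Each matched a single Ensembl gene, so the members were 10 of 21153 genes in the count table, of which 14572 could be given a symbol.

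The α subunit largely sets which ligand is bound, and the β subunit carries the cytoplasmic tail that links to talin, kindlin and the actin cytoskeleton. In ECs, integrins at the basal side act in adhesion, in the assembly of fibronectin and in the response to flow. ITGB1 can pair with ITGA1 and ITGA2 to form collagen receptors, with ITGA3 and ITGA6 to form laminin receptors, with ITGA5 to form the main fibronectin receptor, and with ITGAV. ITGAV also pairs with ITGB3 and with ITGB5 to form receptors for vitronectin and other ligands that carry the RGD (arginine-glycine-aspartate) motif, and ITGA6 pairs with ITGB4 to form the laminin receptor of hemidesmosomes. RNA levels give the supply of each subunit's message and not the amount of any heterodimer.

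The study asked how primary porcine arterial ECs respond to the low and supra-high wall shear stress (WSS) found in aneurysms. The ECs, aortic by the labels and from coronary arteries of 8-month-old pigs by the study's methods, were seeded on gelatin-coated slides and exposed to laminar flow for 48 h. There were 4 groups of 3 cultures: 2 dyne/cm2 (low WSS), 80 dyne/cm2 (supra-high WSS), and 2 sets at 30 dyne/cm2 (physiological WSS), labelled 30.1dyn and 30.2dyn and called set 1 and set 2 here. Medium, coating and duration were shared by all groups, and no group carried a genetic change or a drug. Replicate numbers 1, 2 and 3 carry the same isolate name in every group, and the methods compare cultures of 1 donor and passage, so 2 dyne/cm2 was compared with set 1 and 80 dyne/cm2 with set 2 within replicate number. The design text names 2 slide types, one for low and one for supra-high WSS, each with its own cultures at 30 dyne/cm2, but the labels do not say which set ran in which. Primary ECs outside the vessel lack smooth muscle and blood cells, and gelatin is itself a denatured collagen that integrins can bind.

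Total counts were between 29606854 and 41058902 per library. Of 8 endothelial markers, 6 had a symbol in the table, and their summed level was 4000 to 5190 CPM (counts of a gene per 1000000 counts of its library) at 2 dyne/cm2, 6310 to 7100 in set 1, 5910 to 6760 in set 2 and 7290 to 7990 at 80 dyne/cm2. The 6 smooth muscle markers summed to 43.7 to 83.4 CPM over all libraries. Nearly all of this was SMTN, at 42.9 to 81.9 CPM, and each other marker was at most 0.769 CPM. The 4 fibroblast markers (PDGFRA, PDGFRB, LUM and DCN) summed to 10.4 to 21.7 CPM at 2 dyne/cm2, 2.54 to 18.9 CPM in set 1, 2.66 to 15.3 CPM in set 2 and 2.33 to 10.1 CPM at 80 dyne/cm2. Of the 3 of them that passed the filter at 2 dyne/cm2, 2 rose: PDGFRB by 2.41 ± 0.26 on the log2 scale, from between 0.212 and 1.22 CPM to between 1.08 and 6.67 CPM (edgeR adjusted p = 0.00758, and 0.116 without the block), and PDGFRA by 1.09 ± 0.23 (adjusted p = 0.03, and 0.0949 without the block). LUM gave -0.11 ± 0.25, and DCN, under the filter, was higher in every library at 2 dyne/cm2 than in set 1. The leukocyte markers, mostly CD68, summed to 8.12 to 11.5 CPM at 2 dyne/cm2 and to 12.6 to 27 CPM in the other libraries. PTPRC, the marker that defines leukocytes, had at most 2 counts in any library. EPCAM, the epithelial marker matched, was at most 0.135 CPM. Of the 6 endothelial markers at 2 dyne/cm2, PECAM1 gave -0.71 ± 0.16 and TEK -2.95 ± 0.24 (edgeR adjusted p = 0.0346 and 0.00479). KDR (-1.27 ± 0.37), CDH5 (-0.11 ± 0.12), TIE1 (-0.18 ± 0.11) and ERG (-0.22 ± 0.09) did not pass. At 80 dyne/cm2 only KDR passed (0.49 ± 0.09, adjusted p = 0.0231, and 0.845 without the block). The summed endothelial level, and at 2 dyne/cm2 the levels of PDGFRB and PDGFRA, moved with WSS. Their part in the integrin results was not tested. In bulk RNA, fewer cells of a type and less RNA per cell cannot be told apart.

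All members were expressed, and all passed the filter on low counts (1 CPM or more in 3 or more libraries). The lowest member count in any library was that of ITGA1 in set 1, at 247 counts. The 10 genes together took 0.509% to 0.568% of all counts at 2 dyne/cm2, against 0.749% to 0.927% in set 1. They took 0.727% to 0.903% at 80 dyne/cm2 and 0.605% to 0.692% in set 2. The members' summed share was therefore lower in every library at 2 dyne/cm2, and higher in every library at 80 dyne/cm2, than in the matched set. At 80 dyne/cm2 it overlapped the share in set 1. Most of the summed counts there came from ITGA5 and ITGB1, neither of which passed against set 2 (edgeR adjusted p = 0.0532 and 0.314).

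**Figure D1:**
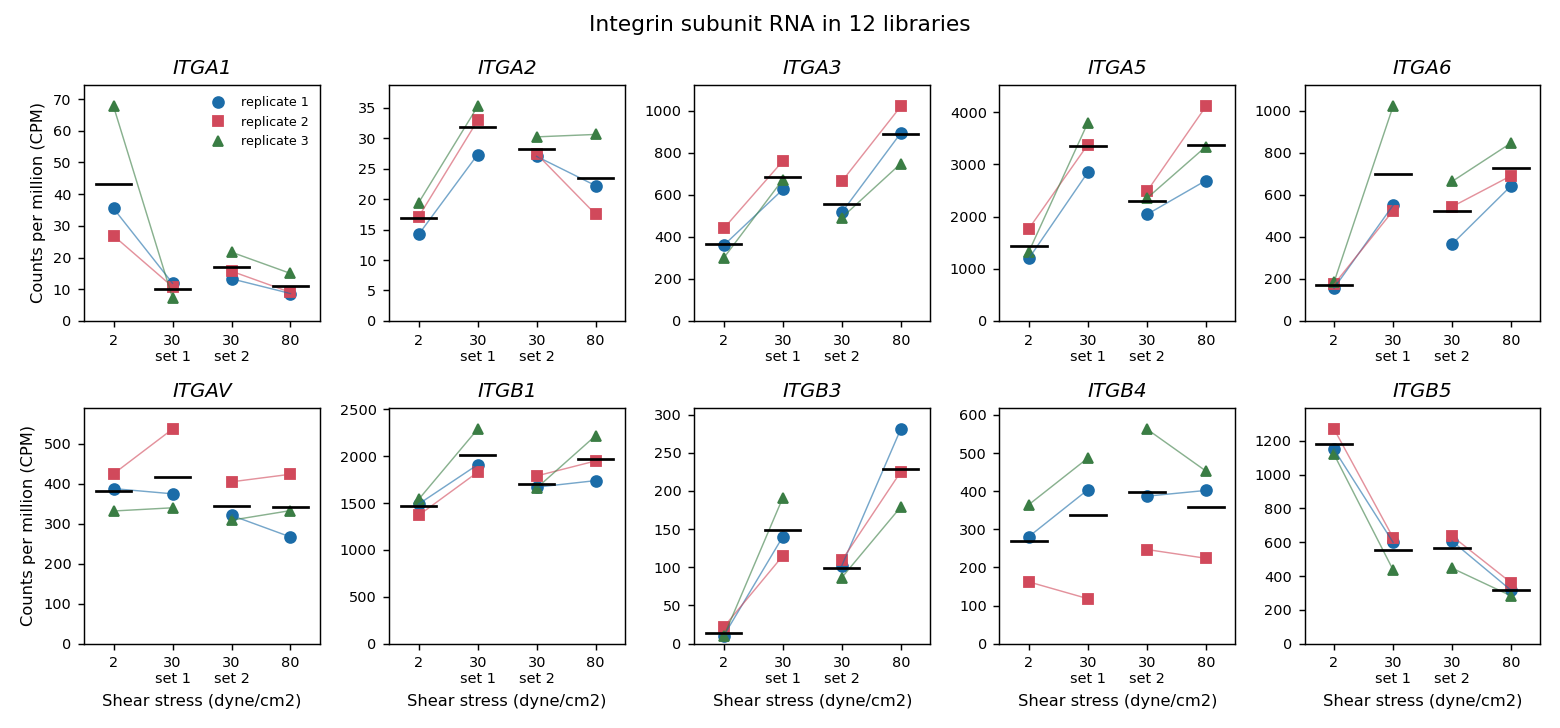
CPM of each integrin subunit (vertical axes, linear and starting at 0) in the 12 libraries by WSS group (horizontal axes). Symbols are single libraries, thin lines join the replicate numbers compared and black bars are group means of 3. ITGB3 lies between 9.54 and 21.8 CPM at 2 dyne/cm2 and at or above 86.5 CPM elsewhere, while ITGB5 lies lowest at 80 dyne/cm2.

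Under low WSS, message of the α chains ITGA2, ITGA3, ITGA5 and ITGA6 and of ITGB3 was lower, and that of ITGA1 and ITGB5 was higher, than in set 1. By edgeR's quasi-likelihood test with the replicate number as a block and Benjamini-Hochberg adjustment, 7 of 10 members passed at an adjusted p under 0.05, where 25.8% of the 11226 genes tested did. Of the 7, ITGA1 and ITGB5 rose, where 13.4% of all genes tested did, and ITGA2, ITGA3, ITGA5, ITGA6 and ITGB3 fell, where 12.4% did. At the study's stricter rule, which also asks for a change of at least 2-fold, 5 members passed against 9.60% of all genes, and 4 without replicate 3 (ITGB5 at 0.97) or against set 2 (ITGA5 at -0.66). The groups did not overlap for 8 members against 36.5% of all genes. The median log2 fold change of the members was -0.67, and that of all genes tested was 0. These 7 members also passed without the block, where 11.1% of all genes did.

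Under supra-high WSS the changes were smaller, and 5 members passed where 8.40% of 11187 genes did. ITGA3, ITGA6 and ITGB3 rose, where 4.36% of all genes did, and ITGA1 and ITGB5 fell, where 4.04% did. Only ITGB3 passed with a change of at least 2-fold, where 2.20% of all genes did. The groups did not overlap for 4 members, against 14.2% of all genes. The median log2 fold change of the members was 0.12, against -0.01 for all genes. The 5 calls rest on the comparison within replicate number and on the set used as control: without the block, edgeR called 0 members and 0 genes in all, with 4 members and 929 genes at an unadjusted p under 0.05. With set 1 in place of set 2, 0 members and 25 genes passed, with 4 members and 1509 genes at an unadjusted p under 0.05. Leaving out replicate 3 left only ITGB3, leaving out replicate 2 left ITGA3, ITGB3 and ITGB5, and leaving out replicate 1 added ITGA5 to the 5.

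**Figure D2:**
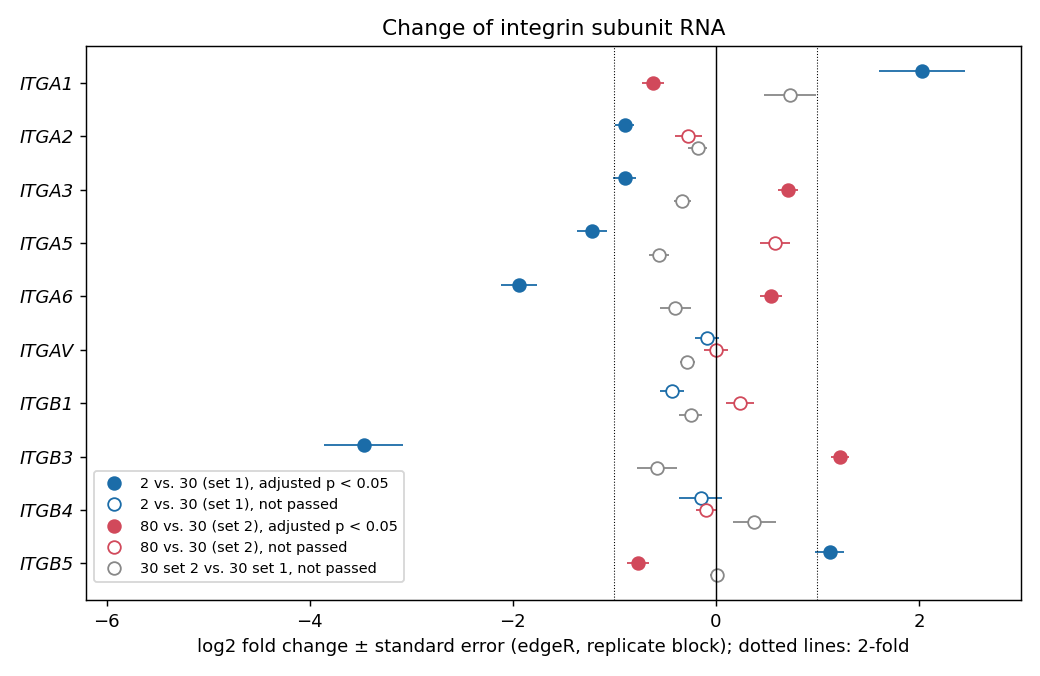
log2 fold change of each subunit (horizontal axis) with its standard error, for 2 dyne/cm2 against set 1 (blue), 80 dyne/cm2 against set 2 (red) and set 2 against set 1 (grey); filled points passed at an adjusted p under 0.05. ITGA1, ITGA3, ITGA6, ITGB3 and ITGB5 passed in both comparisons with WSS, on opposite sides of 0.

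Among the β partners of ITGAV, ITGB3 encodes the subunit best known from the vitronectin receptor αvβ3, which also binds fibronectin and fibrinogen. ITGB3 is annotated on chromosome 12 from 16694466 to 16752228 (Sscrofa11.1, ENSSSCG00000017306). Replicates 1, 2 and 3 gave 10.4, 21.8 and 9.54 CPM at 2 dyne/cm2 and 140, 115 and 191 CPM in set 1. Its lowest library in set 1 was above its highest at 2 dyne/cm2. The log2 fold change was -3.47 ± 0.39 (standard error, n = 3 per group), an 11.1-fold decrease, with an edgeR adjusted p of 0.00787. Supra-high WSS gave 281, 225 and 179 CPM, against 102, 109 and 86.5 CPM in set 2. All 3 libraries at 80 dyne/cm2 were above all 3 of set 2, and the log2 fold change was 1.22 ± 0.09 (2.33-fold, edgeR adjusted p = 0.00233). It was 1.23 without the block, with an edgeR adjusted p of 0.369, and 0.65 against set 1, with an adjusted p of 0.296.

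ITGB5, whose product pairs with αv to form αvβ5, moved against ITGB3 in both comparisons (chromosome 13, 135468111 to 135587483, ENSSSCG00000037905). It was at 1150, 1270 and 1120 CPM at 2 dyne/cm2 and at 600, 628 and 437 CPM in set 1. The groups were apart, and the log2 fold change was 1.12 ± 0.14 (2.18-fold, edgeR adjusted p = 0.00928). Under supra-high WSS it was at 316, 361 and 283 CPM, and in set 2 at 607, 637 and 447 CPM. All libraries at 80 dyne/cm2 were lower, by -0.77 ± 0.11 on the log2 scale (edgeR adjusted p = 0.00942, and 0.418 without the block). The 2 sets at 30 dyne/cm2 differed by 0.01 ± 0.07, and against set 1 the change at 80 dyne/cm2 was also -0.77 (adjusted p = 0.0787). By group means ITGB5 ran from 80 dyne/cm2, through both sets at 30 dyne/cm2, whose values overlapped, up to 2 dyne/cm2.

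ITGAV itself, on chromosome 15 from 91604666 to 91711843 (ENSSSCG00000016027), was between 267 and 537 CPM in the 12 libraries. All 4 groups overlapped. Its log2 fold change was -0.09 ± 0.12 at 2 dyne/cm2 (edgeR adjusted p = 0.593), and under supra-high WSS it was 0.00 ± 0.12 (adjusted p = 0.987). Replicate number accounted for 52.6% of the sum of squares of its log2 CPM, and group for 22.3%.

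Within replicate numbers, the ratio of ITGB3 to ITGB5 message changed in the same direction in all 3 pairs of each comparison. At 2 dyne/cm2 the log2 change of ITGB3 minus that of ITGB5 was -4.69, -3.42 and -5.69 in replicates 1, 2 and 3, with a mean of -4.60 ± 1.14 (SD), so the ratio was 24.2-fold lower than in set 1. In the pairs at 80 dyne/cm2 the difference was 2.41, 1.86 and 1.71, with a mean of 1.99 ± 0.37, a ratio 3.98-fold higher than in set 2. Between the sets at 30 dyne/cm2 it was -0.58 ± 0.55. An exact two-sided sign-flip permutation test gave p = 0.25 in each comparison, the smallest that 3 pairs can give. A ratio in one library is not a ratio of molecules because CPM does not account for gene length.

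**Figure D3:**
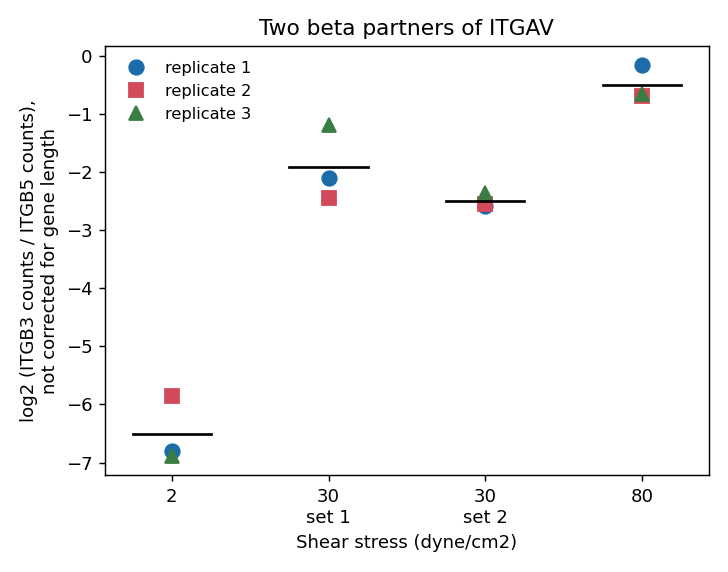
log2 ratio of ITGB3 to ITGB5 counts (vertical axis, not corrected for gene length) in the 12 libraries by WSS group, with black bars for the means of 3. The ratio runs from -6.88 to -5.86 under low WSS, from -2.58 to -1.19 in the sets at 30 dyne/cm2 and from -0.69 to -0.17 under supra-high WSS.

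ITGA5 encodes the α chain of the fibronectin receptor α5β1 (chromosome 5, 19587361 to 19610580, ENSSSCG00000000293). It gave 1200, 1770 and 1330 CPM at 2 dyne/cm2 and 2850, 3380 and 3800 CPM in set 1. Every library at 2 dyne/cm2 was lower, and ITGA5 fell by 1.22 ± 0.15 on the log2 scale (2.33-fold, edgeR adjusted p = 0.00936). Under supra-high WSS it was at 2690, 4110 and 3340 CPM, above the 2040, 2480 and 2350 CPM of set 2 in every library, but the log2 fold change of 0.58 ± 0.15 missed the threshold (edgeR adjusted p = 0.0532). Set 2 lay below set 1 without overlap, by -0.56 ± 0.10 (adjusted p = 0.108), and against set 1 the log2 fold change at 80 dyne/cm2 was 0.02.

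ITGA3 and ITGA6 encode the α chains of the laminin receptors. ITGA3 (chromosome 12, 26234769 to 26269327, ENSSSCG00000017578) was at 360, 440 and 300 CPM at 2 dyne/cm2 and at 625, 760 and 672 CPM in set 1. The groups were apart, and the log2 fold change was -0.90 ± 0.11 (edgeR adjusted p = 0.00905). It was at 893, 1020 and 748 CPM at 80 dyne/cm2 and at 516, 663 and 491 CPM in set 2, again without overlap, a log2 fold change of 0.71 ± 0.10 (edgeR adjusted p = 0.00829, and 0.44 without the block). Against set 1 it was 0.38 (adjusted p = 0.283).

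ITGA6 (chromosome 15, 78504108 to 78591779, ENSSSCG00000015955) was at 156, 174 and 185 CPM at 2 dyne/cm2, and at 550, 524 and 1020 CPM in set 1. Its log2 fold change of -1.94 ± 0.18 (3.84-fold lower, edgeR adjusted p = 0.00607) was the largest decrease among the α chains described. The 80 dyne/cm2 libraries held 642, 690 and 846 CPM of ITGA6, against 365, 543 and 663 CPM in set 2. These groups overlapped, but each replicate number was higher at 80 dyne/cm2, and the log2 fold change was 0.54 ± 0.11 (edgeR adjusted p = 0.0286, and 0.63 without the block). Against set 1 it was 0.14 (adjusted p = 0.752).

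ITGB4, the partner of ITGA6 in hemidesmosomes, did not pass in either comparison (chromosome 12, 5651292 to 5685601, ENSSSCG00000017204). It was at 281, 162 and 365 CPM at 2 dyne/cm2, and at 404, 118 and 487 CPM in set 1, with a log2 fold change of -0.15 ± 0.21 (edgeR adjusted p = 0.62). Libraries at 80 dyne/cm2 gave 402, 224 and 453 CPM, and those of set 2 gave 387, 247 and 563 CPM, with a log2 fold change of -0.10 ± 0.10 (adjusted p = 0.541). Replicate 2 was the lowest and replicate 3 the highest in all 4 groups, and replicate number accounted for 79.5% of its sum of squares, the largest share among the members. Against set 2 the fall at 2 dyne/cm2 was -0.53 and passed (adjusted p = 0.0134). Within replicate numbers, ITGA6 fell more than ITGB4 at 2 dyne/cm2, by a log2 difference of -1.80 ± 0.43 (SD, 3 pairs), and rose relative to it at 80 dyne/cm2 by 0.64 ± 0.14.

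The collagen-binding chains ITGA1 and ITGA2 are neighbours on chromosome 16, with 26322 bases between them, and they moved in opposite directions at 2 dyne/cm2. ITGA1 (32130265 to 32309917, ENSSSCG00000016885) was at 35.5, 26.9 and 67.7 CPM, above the 11.9, 10.8 and 7.28 CPM of set 1 in every library. The log2 fold change was 2.03 ± 0.42 (4.09-fold, edgeR adjusted p = 0.0277), and replicate 3 showed the widest difference. Without replicate 3 it was 1.44, and against set 2 it was 1.32, and both passed (adjusted p = 0.0115 and 0.0154). The rise of PDGFRB and PDGFRA given above ran in the same direction, and its part in the ITGA1 result was not tested. ITGA1 at 80 dyne/cm2 was at 8.66, 9.02 and 15 CPM, against 13.3, 15.7 and 21.7 CPM in set 2. Each replicate number was lower at 80 dyne/cm2, by -0.62 ± 0.11 on the log2 scale (edgeR adjusted p = 0.018, and 0.642 without the block), although the groups overlapped. Set 2 was above set 1 without overlap (0.73 ± 0.26, adjusted p = 0.218), and against set 1 the sign turned, with a log2 fold change of 0.12 (adjusted p = 0.902).

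ITGA2 (32336240 to 32440311, ENSSSCG00000016887) was at 14.2, 17.1 and 19.4 CPM at 2 dyne/cm2 and at 27.3, 32.9 and 35.2 CPM in set 1. All libraries at 2 dyne/cm2 were lower, and the log2 fold change of -0.90 ± 0.09 passed (edgeR adjusted p = 0.00681). ITGA2 at 80 dyne/cm2 was at 22.2, 17.5 and 30.6 CPM and in set 2 at 27, 27.4 and 30.2 CPM. These groups overlapped, and the log2 fold change was -0.27 ± 0.13 (adjusted p = 0.243).

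ITGB1, the β chain shared by ITGA1, ITGA2, ITGA3, ITGA5, ITGA6 and ITGAV, varied least in relative terms, between 1370 and 2290 CPM (chromosome 10, 56078393 to 56130608, ENSSSCG00000011101). It was at 1490, 1370 and 1540 CPM at 2 dyne/cm2 and at 1910, 1830 and 2290 CPM in set 1. The groups were apart, but the log2 fold change of -0.43 ± 0.12 stood at the threshold without passing it (edgeR adjusted p = 0.0506). Supra-high WSS gave 1740, 1950 and 2220 CPM and set 2 gave 1670, 1790 and 1660 CPM, with a log2 fold change of 0.24 ± 0.14 (adjusted p = 0.314). Relative to ITGB1 within replicate numbers, the log2 change at 2 dyne/cm2 was 2.49 ± 1.13 for ITGA1, -1.51 ± 0.36 for ITGA6 and -0.78 ± 0.23 for ITGA5 (SD, 3 pairs). ITGA2 and ITGA3 changed by -0.47 ± 0.16 and -0.46 ± 0.11 relative to it. The largest such difference at 80 dyne/cm2 was that of ITGA1, -0.86 ± 0.15.

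The responses to low and to supra-high WSS were compared directly in 1 model of all 12 libraries, as the change at 2 dyne/cm2 minus the change at 80 dyne/cm2. By edgeR's quasi-likelihood test, 8 members differed, where 37.1% of 11568 genes did. The difference was positive for 2 members and negative for 6, against 19.3% and 17.9% of all genes, and without the block 7 members passed against 15.1%. The log2 difference was -4.70 ± 0.43 for ITGB3 (adjusted p = 9.43e-05), -2.48 ± 0.22 for ITGA6 (adjusted p = 8.64e-05) and 1.91 ± 0.17 for ITGB5 (adjusted p = 8.64e-05). For ITGA1 it was 2.63 ± 0.45 (adjusted p = 0.00194). ITGA5 and ITGA3 differed by -1.80 ± 0.19 and -1.60 ± 0.12, and ITGB1 and ITGA2 by -0.66 ± 0.18 and -0.63 ± 0.18. ITGA2 did not pass without the block (adjusted p = 0.152), nor without replicate 1 (0.0895) or replicate 3 (0.119), and ITGB1 did not pass without replicate 1, 2 or 3 (adjusted p = 0.0501, 0.0573 and 0.16). ITGAV and ITGB4 did not pass, with differences of -0.09 ± 0.18 and -0.08 ± 0.28.

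The 2 sets at 30 dyne/cm2 give the difference between cultures under the same WSS. No member passed between them by edgeR's quasi-likelihood test, where 0.0179% of 11163 genes did, although 6 members had an unadjusted p under 0.05, against 19.2% of all genes. DESeq2 with the block called 2 members, ITGA3 and ITGA5. The groups did not overlap for 4 members, against 10.1% of all genes, with ITGA1 higher and ITGA5, ITGB1 and ITGB3 lower in set 2. The ITGB3 difference between the sets was -0.58 ± 0.20. Slide type and set cannot be told apart.

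**Figure D4:**
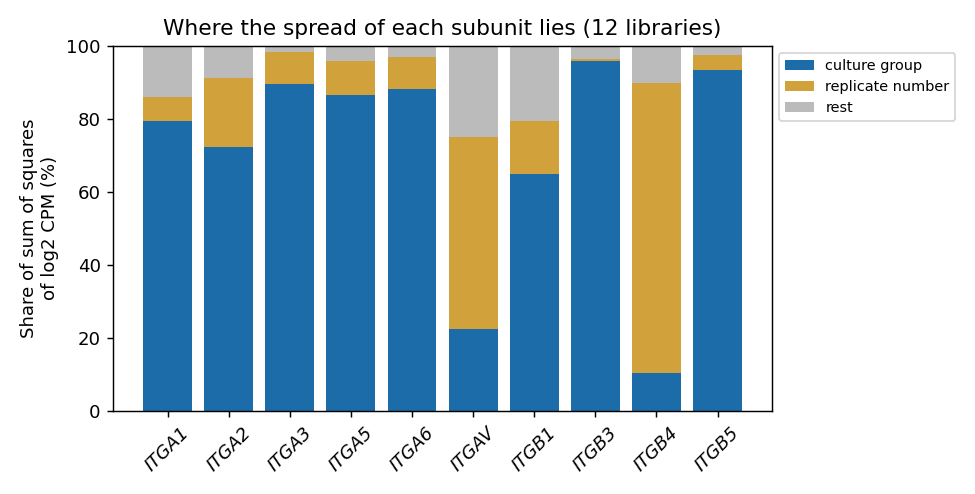
Share of the sum of squares of log2 CPM of each subunit (bars, percent of the total over 12 libraries) that lies between culture groups, between replicate numbers and in the rest. Group takes 96% for ITGB3 and 93.3% for ITGB5, whereas replicate number takes 79.5% for ITGB4 and 52.6% for ITGAV.

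Among the members, the profile most like that of ITGB3 over the 12 libraries, after subtracting each replicate number's mean, was that of ITGA6 (Pearson r = 0.98), and the most opposite was that of ITGB5 (r = -0.95). Of 7675 genes with a symbol and a mean of at least 10 CPM, the nearest to ITGB3 were KCTD15 (r = 0.994), EZR (r = 0.994), which encodes the membrane-actin linker ezrin, and S100A10 (r = 0.993), which encodes a partner of annexin A2. These values describe 12 libraries that fall into 4 groups and share depth, so they carry no test.

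Of 16 other integrin subunits listed, 13 matched and 6 passed the filter, while 7 (ITGA4, ITGA7, ITGA8, ITGA11, ITGAM, ITGB6 and ITGB7) were at most 0.444 CPM in every library. At 2 dyne/cm2, 3 of 6 fell and none rose, where 12.4% and 13.4% of all genes did, and 1 of the 3 passed without the block. ITGA10, which encodes another collagen-binding chain, went from 44.1, 32.8 and 108 CPM in set 1 to 16, 19.1 and 24.4 CPM (log2 fold change -1.46 ± 0.25, edgeR adjusted p = 0.0194, and 0.0811 without the block). ITGB2, the β chain of leukocyte integrins, fell by 1.52 ± 0.24 on the log2 scale (adjusted p = 0.015) at levels of at most 2.76 CPM. Of the leukocyte markers, CD68 was also lower at 2 dyne/cm2 than in set 1 (-1.17 ± 0.15, edgeR adjusted p = 0.00961). CD14 gave 0.11 ± 0.29 (adjusted p = 0.798), and CSF1R, under the filter, was higher in each replicate number. The part of these markers in the ITGB2 result was not tested. ITGA9 fell by 0.95 ± 0.10 (adjusted p = 0.00681, and 0.093 without the block). ITGB8, a further αv partner, was between 19.2 and 90.6 CPM and did not pass (0.29 ± 0.25 at 2 dyne/cm2, adjusted p = 0.423). At 80 dyne/cm2 none of the 6 passed, where 8.40% of all genes did, and none had an unadjusted p under 0.05 by edgeR. ITGAE and ITGAL passed in neither comparison.

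Of the ligands of these receptors, 26 genes were tested at 2 dyne/cm2, where 5 rose and 7 fell, and 25 at 80 dyne/cm2, where 2 rose and 3 fell. Of all genes, 13.4% rose and 12.4% fell under low WSS, near the ligands' own share for the rise, while 4.36% rose and 4.04% fell under supra-high WSS. Without the block, 3 of the 5 and 4 of the 7 passed at 2 dyne/cm2 and none at 80 dyne/cm2. Those that fell at 2 dyne/cm2 were COL4A2, COL6A1, LAMA5, LAMC1, EDIL3, LTBP1 and TGFB1. Of these, LAMA5, LAMC1, LTBP1 and TGFB1 also passed without the block. Those that rose were COL1A2, COL3A1, LAMA3, THBS1 and CCN2. COL1A2 (adjusted p = 0.0325 by edgeR, and 0.64 without the block) was at 114, 3.45 and 175 CPM against 71.1, 2.36 and 64 CPM in set 1. Its replicate 2 was far below the others in both groups. At the higher WSS LAMA5 and LTBP1 rose and FN1, COL3A1 and POSTN fell. LTBP1 rose by 0.55 ± 0.13 (edgeR adjusted p = 0.0463, and 0.679 without the block), with overlapping groups. POSTN was at 172, 15.8 and 1.69 CPM against 340, 24.8 and 1.8 CPM in set 2, a wide spread between replicate numbers. It gave -0.68 ± 0.17 (adjusted p = 0.0474, and 0.922 without the block). COL1A2, COL4A2, LAMC1, EDIL3, TGFB1 and POSTN were named after their values were seen. Their medians on the log2 scale at 2 dyne/cm2 were 0.26 for 7 collagen genes, -0.20 for 7 laminin genes and 0.73 for 12 genes of RGD and other ligands, against 0 for all genes tested. At 80 dyne/cm2 they were -0.06, 0.11 and -0.30, against -0.01.

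Fibronectin, encoded by FN1, is the ligand of α5β1 and αvβ3. FN1 was at 74500, 52300 and 111000 CPM at 2 dyne/cm2, against 33500, 37100 and 24700 CPM in set 1. The groups were apart, but the log2 fold change of 1.28 ± 0.43 did not pass (edgeR adjusted p = 0.0861). FN1 at 80 dyne/cm2 was at 9510, 11400 and 11500 CPM, against 59800, 40300 and 37000 CPM in set 2, and fell by 2.01 ± 0.28 on the log2 scale (adjusted p = 0.00806, and 0.369 without the block). In every library at 2 dyne/cm2 ITGA5 was below, and FN1 above, every library of set 1. Of the other RGD and matricellular ligands, THBS1 (thrombospondin-1) rose by 1.54 ± 0.23 and CCN2 (connective tissue growth factor) by 2.01 ± 0.31 at 2 dyne/cm2. LTBP1, which holds latent TGF-β in the matrix, fell by 1.71 ± 0.17 (adjusted p = 0.0142, 0.0147 and 0.0066). All 3 also passed without the block.

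The laminin chains moved unequally. LAMA3, a chain of laminin bound by α3β1 and α6β4, rose at 2 dyne/cm2 from 1.07, 0.0606 and 1.12 CPM to 6.18, 1.32 and 17.2 CPM (log2 fold change 3.38 ± 0.39, edgeR adjusted p = 0.00839, and 0.112 without the block). LAMB3, a β chain of laminin, had at most 2 counts in any library. LAMA5, a chain of the endothelial basement membrane laminins, fell by 1.43 ± 0.22 under low WSS (adjusted p = 0.0149, and 0.0307 without the block). It rose by 0.83 ± 0.17 under supra-high WSS (adjusted p = 0.028, and 0.47 without the block). LAMC1 was at 1430, 1380 and 1540 CPM at 2 dyne/cm2, against 2250, 2160 and 2510 CPM in set 1. It fell by 0.65 ± 0.12 (adjusted p = 0.0198, and 0.0382 without the block). The other 4 laminin genes tested at 2 dyne/cm2 did not pass.

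Of 7 collagen genes tested, COL3A1, the type III chain, rose by 1.97 ± 0.24 at 2 dyne/cm2 (edgeR adjusted p = 0.00905), and it fell by 1.90 ± 0.35 under supra-high WSS (adjusted p = 0.0203, and 0.504 without the block). COL6A1, a type VI chain, was at 1.84, 2.53 and 0.346 CPM at 2 dyne/cm2 against 10.2, 6.70 and 4.13 CPM in set 1. It fell by 2.31 ± 0.39 (adjusted p = 0.018, and 0.0906 without the block). The part of the fibroblast markers PDGFRB and PDGFRA, which rose at 2 dyne/cm2 as COL3A1 and COL1A2 did, was not tested.

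**Figure D5:**
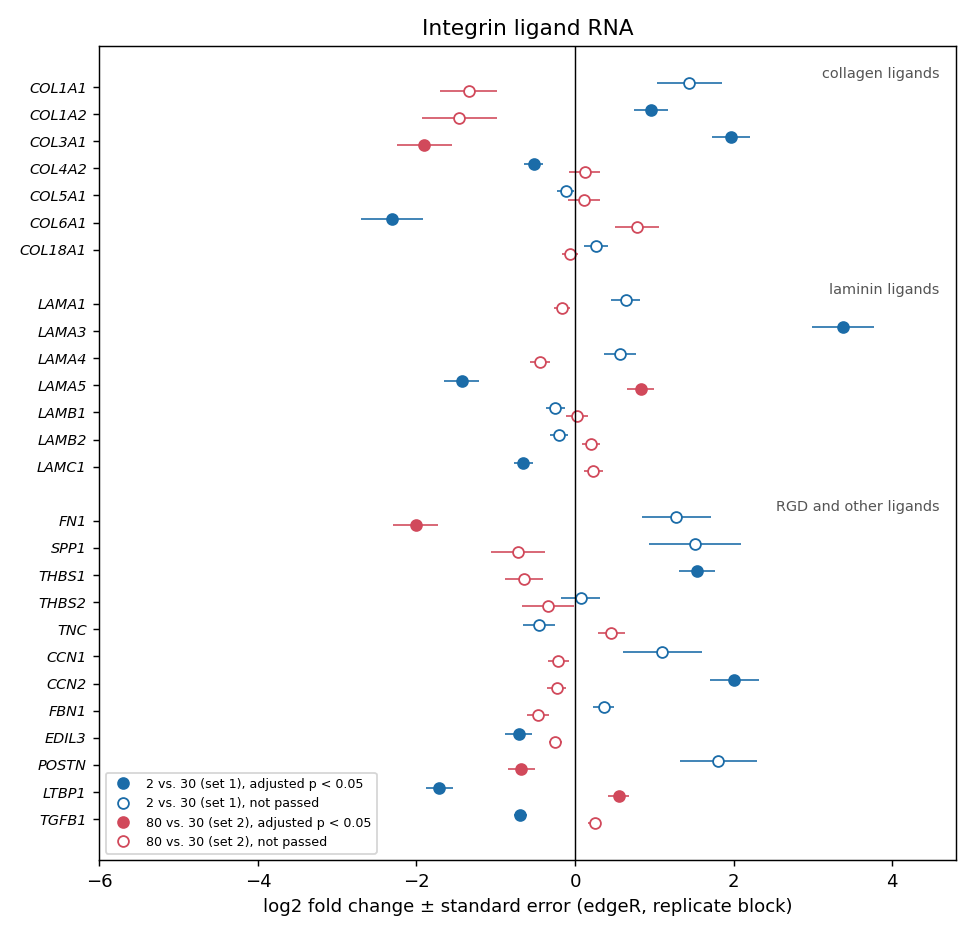
log2 fold change with its standard error (horizontal axis) of the collagen, laminin and other ligand genes tested, at 2 dyne/cm2 against set 1 (blue) and 80 dyne/cm2 against set 2 (red); filled points passed at an adjusted p under 0.05. LAMA3, tested at 2 dyne/cm2 alone, lies at 3.38, and COL3A1 lies on opposite sides of 0, at 1.97 and -1.90.

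All 32 genes of integrin activators, inhibitors and cytoplasmic adaptors were tested. At 2 dyne/cm2, 1 rose (LIMS1, by 0.43 ± 0.08, named after its value was seen) and 9 fell, against 13.4% and 12.4% of all genes. Of the 9, 2 also passed without the block, TNS3 and VASP, as did LIMS1. The median log2 fold change of the 32 was -0.04, and 1 of them, TNS3, changed at least 2-fold. TNS3 encodes tensin 3, which links β tails to actin, and it went from 37.8, 49.8 and 63.1 CPM to 9.93, 21.3 and 10.5 CPM (log2 fold change -1.89 ± 0.26, edgeR adjusted p = 0.0112). At 80 dyne/cm2, 5 rose, against 4.36% of all genes, and none fell. None changed at least 2-fold, and none of the 5 passed without the block. The 5, named after their values were seen, were KANK1, KANK2, PARVB, ZYX and VASP, with log2 fold changes from 0.51 to 0.65.

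Of 9 genes of tetraspanins and hemidesmosome partners, 2 fell and none rose at 2 dyne/cm2, where 12.4% and 13.4% of all genes did. CD9, a tetraspanin that associates with β1 integrins, was at 132, 156 and 171 CPM against 574, 513 and 795 CPM in set 1 (log2 fold change -2.00 ± 0.12, edgeR adjusted p = 0.00331). COL17A1, the transmembrane collagen of hemidesmosomes, was at or below 0.944 CPM against 2.42 to 7.05 CPM (log2 fold change -2.37 ± 0.32, adjusted p = 0.0115). At 80 dyne/cm2, 3 of the 9 rose and 1 fell, where 4.36% and 4.04% of all genes did, and none of them passed without the block. COL17A1 rose by 1.75 ± 0.15 (adjusted p = 0.00291, and 0.401 without the block). CD9 rose by 0.44 ± 0.10 (adjusted p = 0.0419, and 0.745 without the block), with overlapping groups. CD151 rose by 0.48 ± 0.12 (adjusted p = 0.0485, and 0.497 without the block). CD47, which associates with ITGB3, fell by 0.86 ± 0.10 (adjusted p = 0.00635, and 0.401 without the block). CD151 and CD47 fall outside the naming rule and were named after their values were seen.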

How the data were processed

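Total RNA of 12 cultures was sequenced single-end (TruSeq libraries). The authors used STAR to align reads to the Sscrofa11.1 assembly, kept uniquely placed reads and ran featureCounts on merged exons; the deposited values are raw counts per gene. The strand setting is not given in the sources used here, so overlapping genes may share reads. Symbols and positions came from RefSeq and Ensembl tables of the same assembly. Gene lengths were not used, so levels of different genes are not comparable as amounts of RNA molecules. Where genes were summed, or a gene was said to make up most of a sum, the shares are of counts. CPM is the count divided by the library total.

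The test was edgeR's (version 4.0.16, in R 4.3.3) quasi-likelihood F-test on TMM-scaled libraries (genes at 1 CPM or more in at least 3 libraries), with replicate number as a block and Benjamini-Hochberg adjustment over all genes tested. Standard errors are the log2 fold change divided by the square root of F. Over 18 pairs of libraries with the same number, deviations from the group mean correlated at 0.67 to 0.88 (11568 genes), and over 36 pairs with different numbers at -0.55 to -0.19; the isolate names in the labels give the pairing. With the block, p-values measure the spread of the change within replicate number over these 3 isolates, and not the spread of levels between them. On simulated counts for 2 dyne/cm2 against set 1, 193 of 199 changed genes among 11225 tested were found, with 9 false calls. For 80 dyne/cm2 against set 2 these were 198 of 199 among 11173 tested, with 15 false calls. For the difference between responses they were 170 of 200 among 11565, with 11 false calls. How these counts carry over to the members, whose changes and spread differ from gene to gene, was not tested.

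All members were described. From the lists, genes that passed with at least a 2-fold change were named, up to 6 per list and comparison, with the other integrin subunits measured. 1 gene of a ligand list is not reported here and was left out of that list's counts. The members and lists were chosen with earlier results of these data known. Alternatives were other scaling, filters, DESeq2 1.42.0, edgeR's likelihood ratio test, no block, other or both sets at 30 dyne/cm2, 12-library dispersion and leaving out each replicate number.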

Additional observations from a re-analysis of the deposited data

How the results depend on the processing

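At 2 dyne/cm2 the 7 members that passed did so under all 13 alternatives, as did 6 of 8 for the difference between responses under 10. Their count at 2-fold, 5, was 4 without replicate 3, with the other set and with both sets. At 80 dyne/cm2 none of the 5 passed under all 13. There the count, 5 (1 at 2-fold), was 0 (0 at 2-fold) without the replicate block, 0 (0) with the other set, 1 (0) with both sets and 2 (0) with 12-library dispersion, and between 1 and 6 when a replicate number was left out. Between the sets at 30 dyne/cm2 the count of 0 became 1 with no filter and 2 with DESeq2 or the likelihood ratio test. The cause was not tested.

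Some log2 fold changes turned sign. At 2 dyne/cm2 ITGB4 became 0.04 without replicate 1, and ITGAV 0.05 without replicate 2, 0.18 with the other set and 0.04 with both. At 80 dyne/cm2 the other set gave 0.12 for ITGA1, -0.01 for ITGB1 and 0.28 for ITGB4, and both sets 0.07 for ITGB4. The difference between responses became 0.14 for ITGB4 without replicate 1 and 0.12 for ITGAV without replicate 2. With a replicate number left out, ITGAV was between -0.17 and 0.05 and ITGB4 between -0.43 and 0.04 at 2 dyne/cm2, and their differences between responses were between -0.33 and 0.12 and between -0.30 and 0.14. ITGAV at 80 dyne/cm2, at 0.00 in the main fit, ran from -0.27 to 0.17 over the 13 alternatives. No other member changed direction. ITGB1 at 2 dyne/cm2 passed under 3 of 13 alternatives (adjusted p from 0.000759 to 0.31), and ITGA5 at 80 dyne/cm2 under 5 of 13 (7.33e-05 to 0.972).

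Over all genes, 2895 passed at 2 dyne/cm2, against 1244 without the block and 4505 with 12-library dispersion, and 1389 to 1797 with a replicate left out. At 80 dyne/cm2 940 passed, against 0 without the block, 25 with the other set, 328 with both, 364 with 12-library dispersion, 1656 by the likelihood ratio test, and 183 to 2042 with a replicate left out. For the difference between responses 4294 passed, against 1746 without the block and 1949 to 3299 with a replicate left out. Between the sets 2 passed, against 161 with no filter, 467 with DESeq2, 750 by the likelihood ratio test and 0 without the block, and 0 to 144 with a replicate left out. At 2-fold or more, 1078 became 635 without the block at 2 dyne/cm2, and 246 at 80 dyne/cm2 became 0 without it, 23 with the other set, 84 with both, 125 with 12-library dispersion and 132 to 286 with a replicate left out.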

Other observations

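ITGAL, the α chain of a leukocyte integrin, was between 3.57 and 4.76 CPM in replicates 1 and 2 of every group and between 0.6 and 1.2 CPM in replicate 3. ITGA10 was highest in replicate 3 of every group, at 24.4 CPM at 2 dyne/cm2, 108 and 181 CPM in sets 1 and 2, and 211 CPM at 80 dyne/cm2. GP9, a platelet glycoprotein gene and the only platelet marker matched, was at 12 to 14.2 CPM at 2 dyne/cm2 and at 2.73 to 5.13 CPM in the other groups, opposite in direction to ITGB3; ITGA2B, the platelet partner of ITGB3, was not analysed here.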
